A study of Mus musculus with 2 samples.

Results

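Myelin protein genes are the genes whose products build and maintain the myelin sheath of the central nervous system. The 9 taken here, Mbp, Mog, Mag, Mobp, Cldn11, Aspa, Cnp, Mal and Opalin, were chosen by symbol from the 33696 genes listed in each library, and all 9 had UMIs (unique molecular identifiers, each standing for 1 captured RNA molecule) in oligodendrocyte-like nuclei of both libraries. The study profiled nuclear RNA of the mouse hippocampus at postnatal day 19 by droplet-based single-nucleus RNA sequencing. The Control library came from Cicflox/flox mice, which carry loxP-flanked alleles of Cic (Capicua, a transcriptional repressor) and no Cre. The library labelled knockout came from Emx1-Cre; Cicflox/flox mice, so that both groups shared the floxed alleles and differed in the Cre, and no group carrying Cre alone was among them. Each library pooled tissue of 3 littermates, 2 males and 1 female, so there was 1 library per group. No test between groups was possible, and every interval below is an exact 95% interval that covers counting error only, not the spread between mice.

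In the brain, myelin is made by oligodendrocytes, which wrap sheets of membrane around axons. They arise from dividing oligodendrocyte precursors that first become committed, non-dividing cells and then switch on the myelin genes, under transcription factors that include Olig2, Sox10 and Myrf. Mbp (myelin basic protein) holds the cytoplasmic faces of the compacted membrane together, and Mobp is another small basic protein of compact myelin. Cldn11 makes the tight junctions of the radial component, and Mal is a raft proteolipid that takes part in membrane traffic. Cnp keeps cytoplasmic channels open within the sheath. Mag sits on the membrane facing the axon, Mog on the outermost surface of the sheath, and Opalin is a membrane glycoprotein of oligodendrocytes. Aspa cleaves N-acetylaspartate, a source of acetate for lipid synthesis. The Emx1-Cre driver is active in progenitors of the pallium, which give rise to hippocampal excitatory neurons and to part of the glia, whereas inhibitory neurons and microglia come from other sources.

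After filtering and removal of called doublets (12.9% of Control and 10.9% of labelled knockout nuclei), 21837 and 20529 nuclei remained, with a median of 9783 and 8765 UMIs per nucleus, and 175 cell barcodes occurred in both deposited barcode lists. Cic, the targeted gene, was read at least as often in the library labelled knockout as in Control. Over all nuclei it had 2551 UMIs in Control and 3016 in the labelled knockout (log2 ratio 0.50, interval 0.43 to 0.58), and its ratio was above 0 in 12 of the 14 classes with at least 100 nuclei in each library. It was 0.75 in oligodendrocyte-like nuclei (168 and 237 UMIs), 0.44 in committed precursor-like, 0.10 in precursor-like and -0.05 in inhibitory-like nuclei. A gene-level count does not show whether the floxed part was removed, so these counts do not check the label, and the library is called by its label throughout. The classes were named from marker genes after clustering in which the 9 genes took no part. A marker counted as above the other nuclei when it was higher by at least 0.5 on the log2 scale and detected in at least 10% of the class. By this rule oligodendrocyte-like nuclei had all 18 oligodendrocyte markers (among them Ermn, Ugt8a and Gjb1) above the other nuclei in Control and 17 of 18 in the labelled knockout. Committed oligodendrocyte precursor-like nuclei had 13 of 13 markers (among them Bmp4, Gpr17 and Enpp6) above the other nuclei in both libraries. Oligodendrocyte precursor-like nuclei had 11 of 11 markers (among them Pdgfra and Cspg4) above them in both.

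The lineage held 2682 Control and 2539 labelled knockout nuclei. Oligodendrocyte-like nuclei numbered 1069 in Control, 4.90% of all nuclei used (4.61 to 5.19), and 834 in the labelled knockout, 4.06% (3.80 to 4.34). Committed precursor-like nuclei numbered 583 and 576, and precursor-like nuclei 1030 and 1129. Within the lineage, oligodendrocyte-like nuclei made up 39.9% in Control and 32.8% in the labelled knockout, and precursor-like nuclei 38.4% and 44.5%. The intervals of these shares did not overlap between the libraries, and with 1 pool per group the spread between mice is unknown.

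The 9 genes came on at different points of this lineage, and in the same broad order in both libraries. Committed precursor-like nuclei fell into 2 clusters. Cluster 16 (330 Control and 357 labelled knockout nuclei) was led by Bmp4, Enpp6 and Gpr17, genes of newly committed cells, and cluster 22 (253 and 219 nuclei) by 9630013A20Rik and Tcf7l2. Levels are given as CPM (the gene's share of all UMIs of the class, counts scaled so that each class sums to 1000000) and, for each gene, as a percent of its own level in oligodendrocyte-like nuclei of the same library.

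Cnp and Mbp were the furthest advanced in cluster 16. Cnp stood at 42.1% of its oligodendrocyte-like level in Control and 38.4% in the labelled knockout, and Mbp at 23.3% and 18.8%. Cldn11 followed at 15.1% and 16.7%, and Mag at 8.96% and 12.5%. The other 5 genes were below 5% there in both libraries. In cluster 22, Mag (99.8% and 78.4%), Mbp (94.5% and 89.5%), Cnp (75.8% and 75.9%) and Cldn11 (69.7% and 71.3%) were near their oligodendrocyte-like levels. Mobp moved in between, from 0.269% and 0.245% in cluster 16 to 51.2% and 49.9% in cluster 22. Mog reached 21.6% and 18.5%, and Opalin 9.19% and 9.65%. Mal was still at 4.41% and 3.12% and Aspa at 0.405% and 0.584%, so both were still under 5% at that point. Per nucleus, Aspa had 5.40 and 5.03 UMIs in oligodendrocyte-like nuclei of the 2 libraries against 0.0172 and 0.0191 in committed precursor-like nuclei, where it was near its level in inhibitory-like nuclei (0.0140 and 0.00964). Mal had 5.95 and 6.85 against 0.269 and 0.144, also near the inhibitory-like level (0.214 and 0.161), so no fold is given for these steps. The step of Mbp in UMIs per nucleus was 1.59-fold in Control and 2.23-fold in the labelled knockout. Median depth was 7564 and 6492.5 UMIs in committed precursor-like and 7775 and 8277 in oligodendrocyte-like nuclei. In CPM, Mbp went from 6506 to 10529.6 in Control and from 5938 to 10981.2 in the labelled knockout. The parts of depth and of the mix of clusters 16 and 22 in the folds were not tested.

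**Figure D1:**
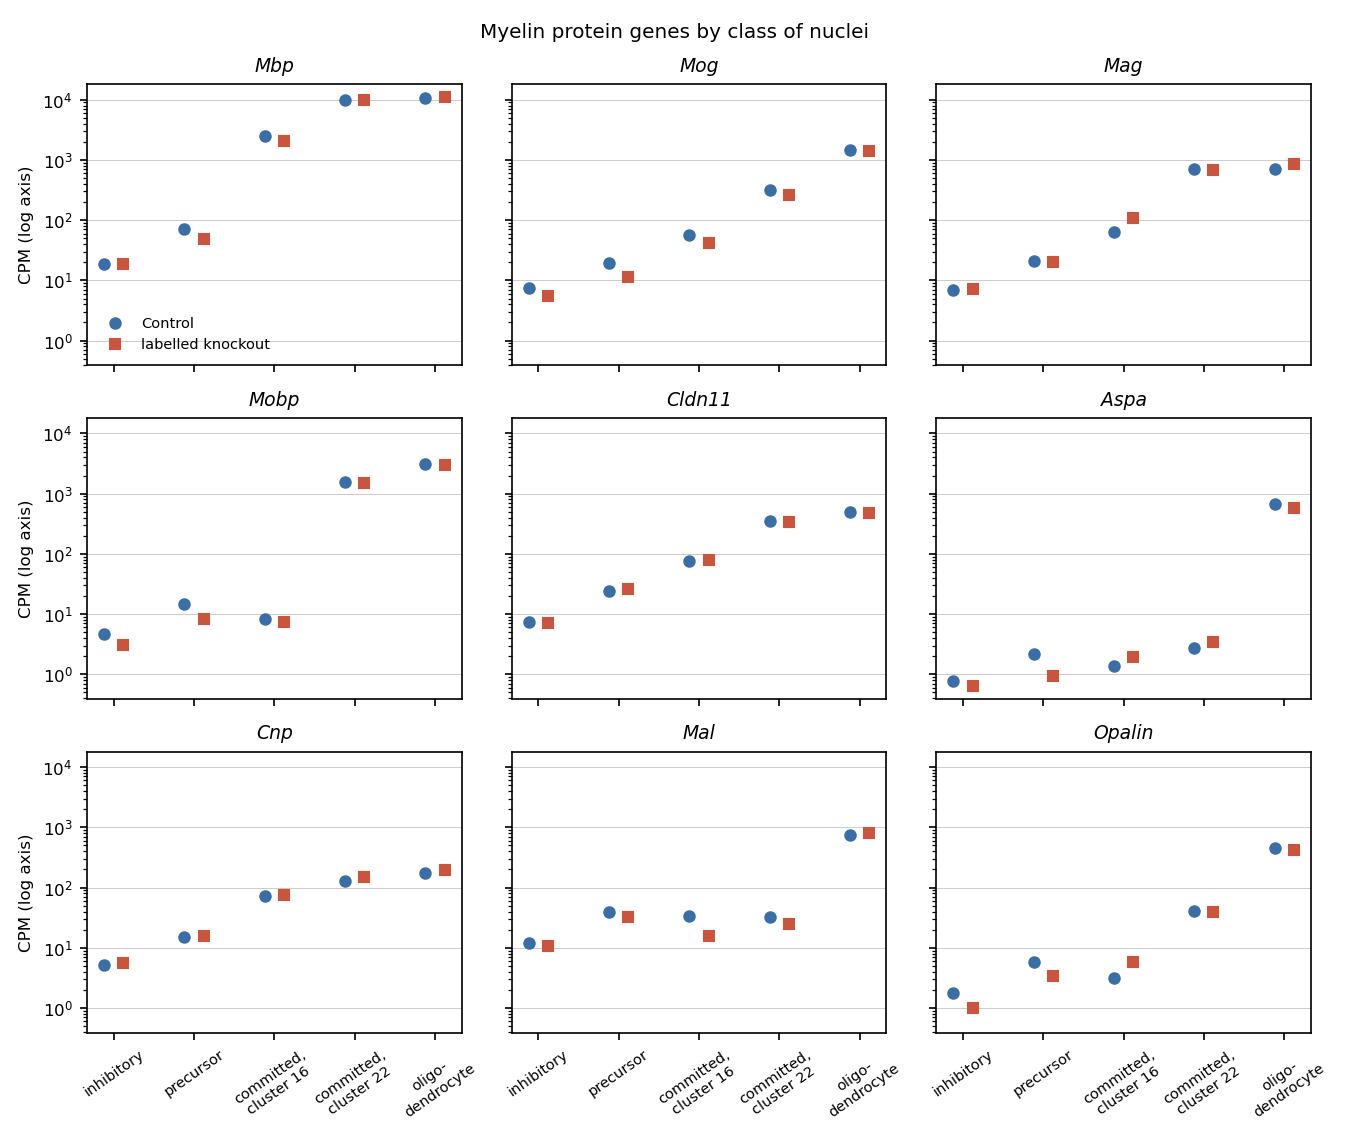
Each panel plots 1 gene in CPM of the class (log axis) in inhibitory-like nuclei, precursor-like nuclei, the 2 committed clusters and oligodendrocyte-like nuclei, with 1 point per library (circles Control, squares labelled knockout). Mbp already has 2453 and 2064 CPM in cluster 16. Cnp has 72.5 and 75.9 CPM there, against 172 and 198 in oligodendrocyte-like nuclei. Mobp rises between clusters 16 and 22, and Aspa and Mal rise only at the last step.

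The MYRF protein binds a short motif, and the CIC protein binds octamers of its own. The stretch of 250 bases before each RefSeq start site (build GRCm38.p6, while the deposited counts were made on mm39) was searched on both strands for the MYRF motif in its forms CTGGCAC and CTGGTAC and for the CIC octamers TGAATGAA, TGAATGGA, TCAATGAA and TCAATGGA, and no matches of different motifs overlapped in the windows of the 9 genes. Windows were found for 8 of the 9 genes. A MYRF form lay in a window of 3 of these 8 genes, Mog, Mag and Cnp, against 6.79% of all 27025 genes with a window (5.93% of 32851 windows). A CIC octamer lay in that of Mog alone, against 3.71% of genes (3.19% of windows). In all, 4 windows held a match, 2 of them for neighbouring Mag starts that share 1 match, and 1 window is shown for each of the 3 genes with a match. Capitals mark the matches (on the gene's own strand except GTACCAG of Mog, which is CTGGTAC on the other strand). A match is a run of letters and not evidence of binding. The windows are chr7:30914864-30915113 (minus strand) for 1 of 3 Mag starts, chr11:100574689-100574938 (plus strand) for Cnp and chr17:37023399-37023648 (minus strand) for Mog.
Mag: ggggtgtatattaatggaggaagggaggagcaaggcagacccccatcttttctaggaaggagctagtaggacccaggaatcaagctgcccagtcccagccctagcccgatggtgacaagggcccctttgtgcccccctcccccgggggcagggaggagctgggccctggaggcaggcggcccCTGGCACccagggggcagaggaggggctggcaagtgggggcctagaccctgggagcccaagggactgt
Cnp: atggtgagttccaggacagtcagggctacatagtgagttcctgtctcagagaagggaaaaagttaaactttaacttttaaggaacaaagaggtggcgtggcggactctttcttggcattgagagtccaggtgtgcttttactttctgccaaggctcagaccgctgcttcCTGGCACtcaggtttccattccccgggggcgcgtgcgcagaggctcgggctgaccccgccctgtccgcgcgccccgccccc
Mog: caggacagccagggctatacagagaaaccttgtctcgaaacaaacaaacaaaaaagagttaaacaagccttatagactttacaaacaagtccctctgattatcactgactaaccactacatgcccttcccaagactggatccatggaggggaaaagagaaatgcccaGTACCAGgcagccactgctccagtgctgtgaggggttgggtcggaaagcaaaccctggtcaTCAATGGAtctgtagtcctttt
The match begins 68 bases before the start site in the Mag window, 81 bases before it in Cnp and 83 bases before it in Mog, where the CIC octamer begins 22 bases before it.

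The next question was whether the levels within oligodendrocyte-like nuclei differed between the libraries. They differed little. None of the 9 genes was 2-fold apart (the rule also asked for 50 or more UMIs and a level of 10 CPM or more in whichever library was higher), against 3.64% of the 8124 genes tested in these nuclei. For 9 genes this is close to that share and does not set them apart from other genes. Of the 9, 8 had a log2 ratio (labelled knockout over Control, 0.5 UMI added to each sum) within 0.25 of 0, as did 60.8% of all genes tested. Their median ratio was -0.05 and that of all genes tested -0.10. The sign of this median was not stable, since it was 0.04 with TMM factors and 0.05 with median-of-ratios factors.

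Among the compact myelin genes, Mbp had 90709 UMIs in Control and 79070 in the labelled knockout, or 10529.6 and 10981.2 CPM. Its log2 ratio was 0.06 (0.05 to 0.07). Mobp had 26265 and 21267 UMIs, or 3049 and 2954 CPM, with a ratio of -0.05 (-0.07 to -0.02). The level of Mbp in the labelled knockout was thus 1.04 times and that of Mobp 0.969 times that of Control. Mbp was detected in 100% and 99.9% of these nuclei and Mobp in 99.5% and 99.8%, while in inhibitory-like nuclei, which do not make myelin, Mbp was detected in 21.5% and 20.6%. Once all nuclei were thinned to 2000 UMIs, Mbp was detected in 99.8% and 100% of oligodendrocyte-like and in 3.80% and 4.10% of inhibitory-like nuclei. Cldn11 had 504.6 and 474.4 CPM, a ratio of -0.09 (-0.15 to -0.02). Mal had 738 and 794 CPM, a ratio of 0.10 (0.05 to 0.16).

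Cnp, the enzyme of the cytoplasmic channels, had 1484 UMIs in Control and 1423 in the labelled knockout, or 172 and 198 CPM. Its ratio was 0.20 (0.09 to 0.30). In GENCODE, Cnp overlaps Dnajc7 on the opposite strand and Mobp overlaps Gm38642 on the same strand, and how reads of overlapping genes were assigned is not given in the sources used here.

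Of the surface genes, Mag had 6186 and 6162 UMIs, or 718 and 856 CPM, and the highest ratio of the 9 at 0.25 (0.20 to 0.30). Mog had 12711 and 10215 UMIs, or 1476 and 1419 CPM, with a ratio of -0.06 (-0.09 to -0.02). Opalin had 3888 and 2970 UMIs, or 451 and 412 CPM, with a ratio of -0.13 (-0.20 to -0.06). The small negative ratios turned with the scaling. With TMM and median-of-ratios factors Mog was at 0.03 and 0.04, Mobp at 0.04 and 0.05, and Cldn11 at -0.00 and 0.00, while Mag stayed above 0 and Opalin and Aspa below it under both.

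Aspa had the lowest ratio of the 9. It had 5777 UMIs in Control and 4193 in the labelled knockout, or 671 and 582 CPM, a ratio of -0.20 (-0.26 to -0.15). Aspa was detected in 93.0% of Control and 87.3% of labelled knockout oligodendrocyte-like nuclei, and in 68.4% and 62.3% once each nucleus was thinned to 2000 UMIs, leaving out 11 and 15 shallower nuclei. In inhibitory-like nuclei, which were deeper (a median of 17041 and 14242 UMIs, against 7775 and 8277 in oligodendrocyte-like nuclei), it was detected in 1.40% and 0.884%.

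The sex of a nucleus, read from Xist and Y-linked UMIs, gave a split within each pool into 1 female mouse and 2 male mice. Ratios of Mog (-0.06 in female and -0.06 in male nuclei), Aspa (-0.18 and -0.24), Cldn11 (-0.12 and -0.22), Opalin (-0.11 and -0.07) and Mobp (-0.09 and -0.03) had the same sign in both sets, as did those of Mbp (0.00 and 0.08) and Mag (0.35 and 0.11). Cnp (0.59 and -0.13) and Mal (0.31 and -0.24) had opposite signs. The intervals of Cnp were 0.40 to 0.78 in female and -0.29 to 0.03 in male nuclei, and those of Mal 0.22 to 0.41 and -0.32 to -0.16. The ratios of Cnp and Mal thus differed between female and male nuclei. Whether this came from the mice, the mix of nuclei in each set or the nuclei assigned no sex was not tested.

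**Figure D2:**
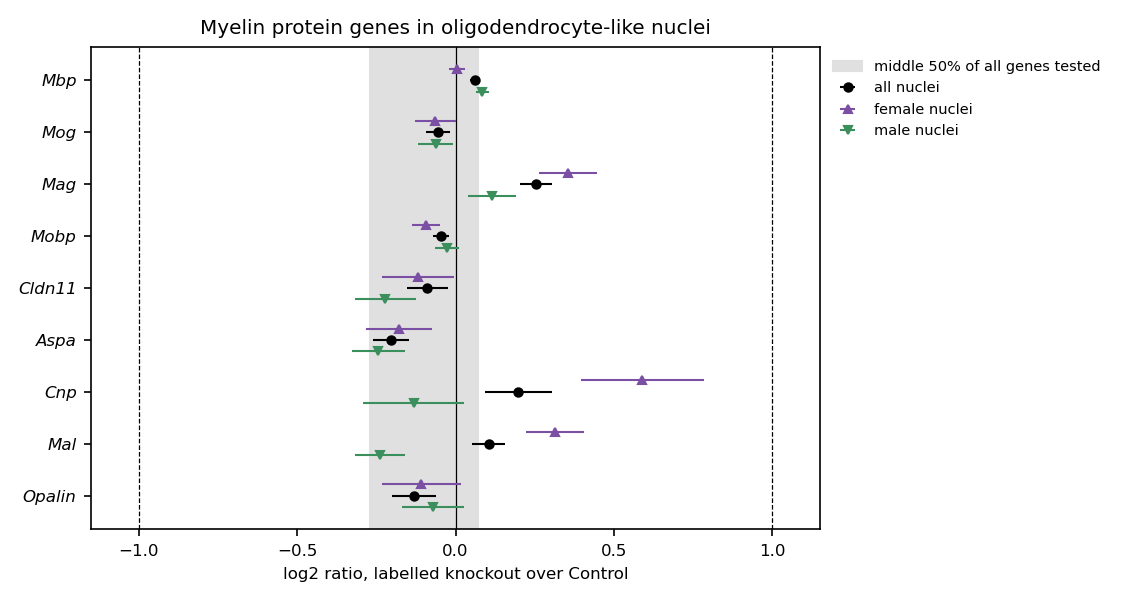
Log2 ratio (labelled knockout over Control) of each gene in oligodendrocyte-like nuclei for all nuclei (circles), female nuclei (upward triangles) and male nuclei (downward triangles), with exact 95% counting intervals. The grey band holds the middle 50% of all genes tested and the dashed lines mark 2-fold, and every point lies between those lines, with Cnp and Mal on opposite sides of 0 in female and male nuclei.

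Seen nucleus by nucleus, the genes were detected together. The median oligodendrocyte-like nucleus held UMIs of 8 of the 9 genes in both libraries, and all 9 were present in 49.0% of Control and 48.6% of labelled knockout nuclei. No oligodendrocyte-like nucleus lacked all 9. The 9 genes took a median of 1.79% of a nucleus's UMIs in Control (middle 50% from 1.52% to 2.04%) and 1.85% in the labelled knockout (1.60% to 2.08%). In committed precursor-like nuclei the median was 0.571% and 0.457%, with 3.26% and 9.55% of nuclei holding none of the 9. The part of the mix of the 2 committed clusters in these values was not tested.

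**Figure D3:**
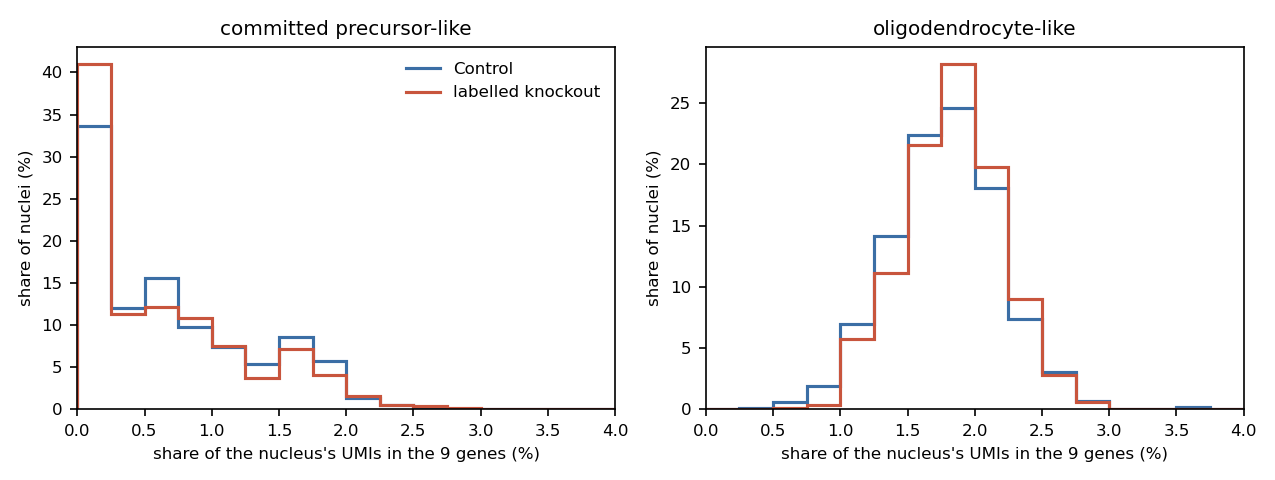
Share of nuclei (y axis, %) by the percent of their UMIs that fell in the 9 genes (x axis, bins of 0.25) in committed precursor-like (left) and oligodendrocyte-like nuclei (right), 1 line per library. The oligodendrocyte-like distributions of the 2 libraries overlap almost fully around medians of 1.79% and 1.85%, and the committed distributions pile up near 0 with a long upper tail.

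At a finer clustering the oligodendrocyte-like nuclei split into 2 subclusters, whose sizes are not compared here because their leading genes differ between the libraries. Subcluster 14 (420 Control and 658 labelled knockout nuclei) was led by Opalin, Tnni1 and Gm597 (0 and 675 UMIs), and subcluster 17 (647 and 176 nuclei) by 4930420G21Rik, Prr5l, Trf, Aspa and Hapln2. Within subcluster 14 the median ratio of the 9 genes was -0.07, with Opalin at -0.49 (-0.56 to -0.41), Mal at 0.25 (0.18 to 0.32), Mag at 0.02 (-0.04 to 0.08) and Mog at -0.12. Within subcluster 17 it was 0.22, with Mal at 0.78 (0.69 to 0.86), Cnp at 0.72 (0.51 to 0.92), Mag at 0.45 (0.33 to 0.56), Cldn11 at 0.41 (0.29 to 0.53) and Mog at 0.08. Mbp was at -0.05 and 0.00 and Mobp at -0.11 and -0.07 in the 2 subclusters. Aspa, at -0.20 over the whole class, was at -0.07 (-0.15 to 0.00) in subcluster 14 and 0.22 (0.11 to 0.33) in subcluster 17. Since Aspa and Opalin lead the subclusters and Gm597 differs between the libraries, the split is not independent of these ratios, and the part of the subcluster mix in the class ratios was not tested.

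In committed precursor-like nuclei 8 of the 9 genes could be tested, Aspa being too low with 10 and 11 UMIs. None of these 8 was 2-fold apart, against 1.24% of 8377 genes. Mbp had 31042 UMIs in Control and 24521 in the labelled knockout (ratio -0.13, -0.16 to -0.11). Mobp had 4042 and 3051 UMIs (-0.20, -0.27 to -0.13) and Mog 945 and 629 (-0.38, -0.53 to -0.23). Of the Mobp UMIs, 4024 and 3036 lay in cluster 22, which held 253 of 583 Control and 219 of 576 labelled knockout nuclei. The part of this cluster mix in the class ratios was not tested. Mal, at 157 and 83 UMIs, had the largest ratio at -0.71 (-1.11 to -0.32). In these nuclei 7 of the 8 ratios were below 0, with Cnp (0.12, -0.07 to 0.30) above it. The median of the 9 was -0.11 (-0.12 over the 8 tested) and that of all genes tested 0.00.

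The signs in committed nuclei also differed between female and male nuclei. The share of cluster 22 in each of these sets was not compared, and its part in the signs was not tested. Mobp had a ratio of 0.30 (0.19 to 0.41) in female and -0.42 (-0.53 to -0.32) in male nuclei, and Mbp of 0.07 (0.03 to 0.11) and -0.15 (-0.19 to -0.12). Opalin had the widest gap, with 1.44 (16 and 44 UMIs) in female and -0.72 (76 and 36 UMIs) in male nuclei, and Cldn11 (0.16 and -0.05) and Mag (0.10 and -0.07) also had opposite signs. Mog (-0.01 and -0.45) and Mal (-0.32 and -0.91) were below 0 in both sets. Thus 6 of the 8 genes tested were above 0 in female nuclei and 7 of the 8 below 0 in male nuclei. Mal per nucleus in these cells, 0.269 UMIs in Control and 0.144 in the labelled knockout, was close to its level in inhibitory-like nuclei, 0.214 and 0.161, and the part of background RNA in its ratio was not tested. Within cluster 22, where most of the genes were already high, the ratios were -0.02 for Mbp, -0.08 for Mobp, -0.10 for Mag, -0.28 for Mog and 0.20 for Cnp. Within cluster 16 they were -0.25 for Mbp, 0.73 (0.42 to 1.05) for Mag and -1.09 (-1.75 to -0.49) for Mal.

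Per nucleus, oligodendrocyte precursor-like nuclei held the 9 genes, Mbp aside, at about the level of cells outside the lineage or below it. Mbp was near its level in inhibitory-like nuclei and above that in microglia-like nuclei. The 7 genes other than Mbp and Aspa had 0.745 UMIs per nucleus in Control and 0.560 in the labelled knockout, against 0.818 and 0.609 in inhibitory-like nuclei. Microglia-like nuclei had 0.724 and 0.570. Mbp had 0.380 and 0.233 UMIs per nucleus, against 0.341 and 0.291 in inhibitory-like nuclei. Microglia-like nuclei held 0.198 and 0.132 Mbp UMIs each. Per 100 UMIs of the 7 genes, Mbp had 51.0 (45.0 to 57.7) in precursor-like nuclei of Control and 41.6 (35.9 to 48.1) in those of the labelled knockout, against 41.7 and 47.8 in inhibitory-like and 27.3 and 23.2 in microglia-like nuclei. Without 3 Control nuclei that had at least 0.25% of their UMIs in the 9 genes and together held 97 of the 391 Mbp UMIs, the Control value was 40.2. No precursor-like nucleus of the labelled knockout reached that share. Of the 9, 7 could be tested and 0 were 2-fold apart, against 0.213% of 9410 genes. The ratio of Mbp was -0.53 (-0.76 to -0.30), but 0.01 (-0.41 to 0.44) in female and -0.24 (-0.64 to 0.16) in male nuclei, the rest of its UMIs lying in nuclei that were assigned no sex. Without the 3 Control nuclei it was -0.12 (-0.37 to 0.12), or 0.286 and 0.233 UMIs per nucleus, but they were picked by a share that counts Mbp itself, which lowers the Control value by construction. Mog had 107 and 62 UMIs (-0.74, -1.22 to -0.28), with -1.05 in female and -0.72 in male nuclei. Mobp had 82 and 44 UMIs (-0.85, -1.42 to -0.31), with opposite signs in female (-0.71) and male nuclei (0.31). Per nucleus both genes were below their level in inhibitory-like nuclei, with 0.104 and 0.0549 UMIs of Mog against 0.134 and 0.0843, and 0.0796 and 0.0390 of Mobp against 0.0849 and 0.0466.

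The other genes of the myelin program were looked at in 4 lists. Of 29 further genes of myelin structure and membrane, 28 could be tested in oligodendrocyte-like nuclei, of which 0 were 2-fold higher and 3 lower in the labelled knockout, against 2.47% higher and 1.17% lower among all genes tested. Their median ratio was -0.11. The 3 lower genes were Hapln2, a link protein at the node of Ranvier (306 and 101 UMIs, ratio -1.34), Cntn2, an adhesion protein of the juxtaparanode (1227 and 450 UMIs, -1.19), and Anln, a septin-binding scaffold (1357 and 527 UMIs, -1.10).

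Within the 2 subclusters the ratios of these 3 genes differed from those of the class. In subcluster 17 Anln had 305 CPM in Control and 381 in the labelled knockout, and in subcluster 14 it had 8.66 and 22.8, so that its ratio was above 0 in both (0.32 and 1.38) while it was below 0 in the class. Hapln2 had 68.4 and 90.7 CPM in subcluster 17 (0.41) and 2.34 and 1.45 in subcluster 14. Cntn2 was lower in both, with ratios of -0.33 and -0.71. The part of the subcluster mix in the class ratios of the other genes was not tested.

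Of the 23 cholesterol synthesis genes, whose product makes up much of the myelin membrane, 22 had a ratio above 0 in oligodendrocyte-like nuclei and 0 were 2-fold apart. Their median was 0.26, against -0.10 for all genes tested. Hmgcs1, a synthase early in the pathway, had 1226 and 1566 UMIs (0.61, 0.50 to 0.72), with 1.04 in female and 0.24 in male nuclei, and 0.11 (-0.10 to 0.32) in committed precursor-like nuclei. In committed precursor-like nuclei 21 of 23 were above 0, with a median of 0.22, and Mvd, a decarboxylase of the pathway, was at the 2-fold threshold (41 and 72 UMIs, 1.01, 0.45 to 1.61), which 1% of all genes tested there passed as higher. It was under 2-fold with TMM factors (0.99) and in male nuclei (0.74), and in oligodendrocyte-like nuclei it was the 1 cholesterol gene below 0 (-0.08). Among 18 myelin sphingolipid and fatty acid genes 16 could be tested in oligodendrocyte-like nuclei (median -0.06), and among 20 transcription factor genes 16 (median -0.02), with 0 in either list 2-fold apart. With TMM factors Tcf7l2, a transcription factor of the lineage (463 and 749 UMIs, 0.95), came to 1.04, and so did Tm7sf2 of the cholesterol list (85 and 138 UMIs, 0.95), so that 1 gene of each of these lists then passed as higher. Myrf had 736 and 573 UMIs there, a ratio of -0.10 (-0.26 to 0.06), and Sox10 2649 and 2593 UMIs, a ratio of 0.23 (0.15 to 0.31).

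Over the 28 sums of 14 classes in 2 libraries, the other genes whose patterns were most like the mean pattern of the 9, of 14098 genes compared, included Trip12 (Pearson r 0.972), Mtmr2 (0.972), Gsn (0.960), Ermn (0.958), Nkx6-2 (0.955), Pkm (0.954) and Fpgt (0.951). The sums share libraries and depth, so these correlations are descriptions. Of the 9 themselves, Mog came closest to their mean (0.993), and Mbp (0.912), Mal (0.882) and Aspa (0.849) stood furthest from it. Each of the 9 is part of that mean, which raises its r by construction, so these values do not compare with those of the other genes.

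Outside the lineage, the 9 genes together had between 0.814 and 1.57 UMIs per nucleus in Control and between 0.679 and 1.43 in the labelled knockout. Without Mbp and Aspa the level was more even. The other 7 genes summed to between 0.610 and 0.818 UMIs per nucleus in the 11 other classes of the Control library, and to between 0.517 and 0.613 in the labelled knockout. Median depth in those classes ran from 2152 UMIs in microglia-like to 24396.5 in CA3-like nuclei of Control and from 1718.5 to 21497.5 in the same classes of the labelled knockout. In microglia-like nuclei the 7 genes had 0.724 and 0.570 UMIs per nucleus, and in CA3-like nuclei 0.795 and 0.542. A relation of the sum to depth was not tested. As background, RNA free in the droplet suspension adds a low count to every droplet, and the level outside the lineage is called background below.

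Per nucleus, the background was lower in the library labelled knockout in 11 of 11 classes, with the interval below 0 in 8 of them. The log2 ratio of the 7 genes per nucleus had a median of -0.34 and ran from -0.55 in CA3-like to -0.11 in cycling progenitor-like nuclei. In Cajal-Retzius-like nuclei, among those 8 classes, it was 0.43 (-0.27 to 1.16) in female and -1.02 (-1.58 to -0.47) in male nuclei. Nuclei of that library were also shallower, and in CPM the 7 genes differed less. They had 319 and 316 CPM in microglia-like, 155 and 154 in immature granule-like and 174 and 172 in radial glia-like nuclei. The gap was wider in CA3-like (31.7 and 24.4), CA2-like (29.6 and 24.9), dentate granule-like (58.6 and 51.2) and inhibitory-like nuclei (45.4 and 39.9). It was also wider in Cajal-Retzius-like (129 and 115), astrocyte-like (149 and 135) and CA1-like nuclei (35.6 and 33.5). Only cycling progenitor-like nuclei were higher in the labelled knockout (169 and 190 CPM). The part of depth in the per-nucleus ratios was not tested. In inhibitory-like nuclei, whose cells arise outside the Emx1 territory, all 9 genes together had 1.17 UMIs per nucleus in Control and 0.909 in the labelled knockout, a ratio of -0.37 (-0.48 to -0.25). As a share of the class's UMIs the same sums were 65.1 and 59.5 CPM, a ratio of -0.13 (-0.24 to -0.02). Per nucleus the ratio was -0.33 in female and -0.47 in male nuclei, and -0.30 with each nucleus thinned to 2000 UMIs. In oligodendrocyte-like nuclei of the same libraries the 9 genes together had 148 and 161 UMIs per nucleus, a ratio of 0.13 (0.12 to 0.14), which was 0.35 in female and 0.00 in male nuclei. Scaled to the UMIs of the class, that was 18309 and 18670.0 CPM. The oligodendrocyte-like share of nuclei was also lower in that library, and the part of that share in the background was not tested.

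The mix of genes in the background differed from that of oligodendrocyte-like nuclei, in percentage points most of all for Mobp. Mobp made up 42.9% of the 7 genes' UMIs in Control oligodendrocyte-like nuclei, but between 8.31% and 13.0% in the 11 outside classes. Mal made up 10.4% there and between 25.6% and 31.7% outside. In the labelled knockout Mobp made up 41.6% in oligodendrocyte-like nuclei and between 6.67% and 13.3% outside. Mal made up 11.2% in those nuclei and a median of 26.5% outside, with the lowest outside share, 13.3%, in CA2-like nuclei (8 of 60 UMIs). Cnp made up 2.42% in Control and 2.78% in labelled knockout oligodendrocyte-like nuclei, and a median of 9.09% and 12.9% outside.

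Mbp stood apart from the 7 genes in dentate granule-like, CA1-like and CA3-like nuclei. It had 122 UMIs per 100 UMIs of the 7 in dentate granule-like nuclei of Control (117 to 128) and 97.3 in the labelled knockout (91.6 to 103), 104 and 144 in CA1-like nuclei, and 83.1 and 95.1 in CA3-like nuclei. The same measure was 41.7 and 47.8 in inhibitory-like nuclei, 27.3 and 23.2 in microglia-like nuclei, and 22.1 and 21.1 in astrocyte-like nuclei. It was no higher than in inhibitory-like nuclei in immature granule-like nuclei (35.9 and 33.7) or in CA2-like nuclei, where 34 Mbp UMIs stood against 103 of the 7 genes in Control and 18 against 60 in the labelled knockout. Dentate granule-like, CA1-like and CA3-like nuclei were thus above all 8 other classes outside the lineage in both libraries, with intervals that did not overlap those of the others. Single clusters varied within classes. Cluster 23 of the inhibitory-like nuclei had 70.8 in Control and 32.5 in the labelled knockout, against 76.4 and 68.9 in cluster 5 of the dentate granule-like nuclei. Unnamed clusters were not compared. As background, the Mbp locus also gives rise to the longer Golli transcripts, which are made in neurons, and gene-level counts do not separate the 2 kinds.

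**Figure D4:**
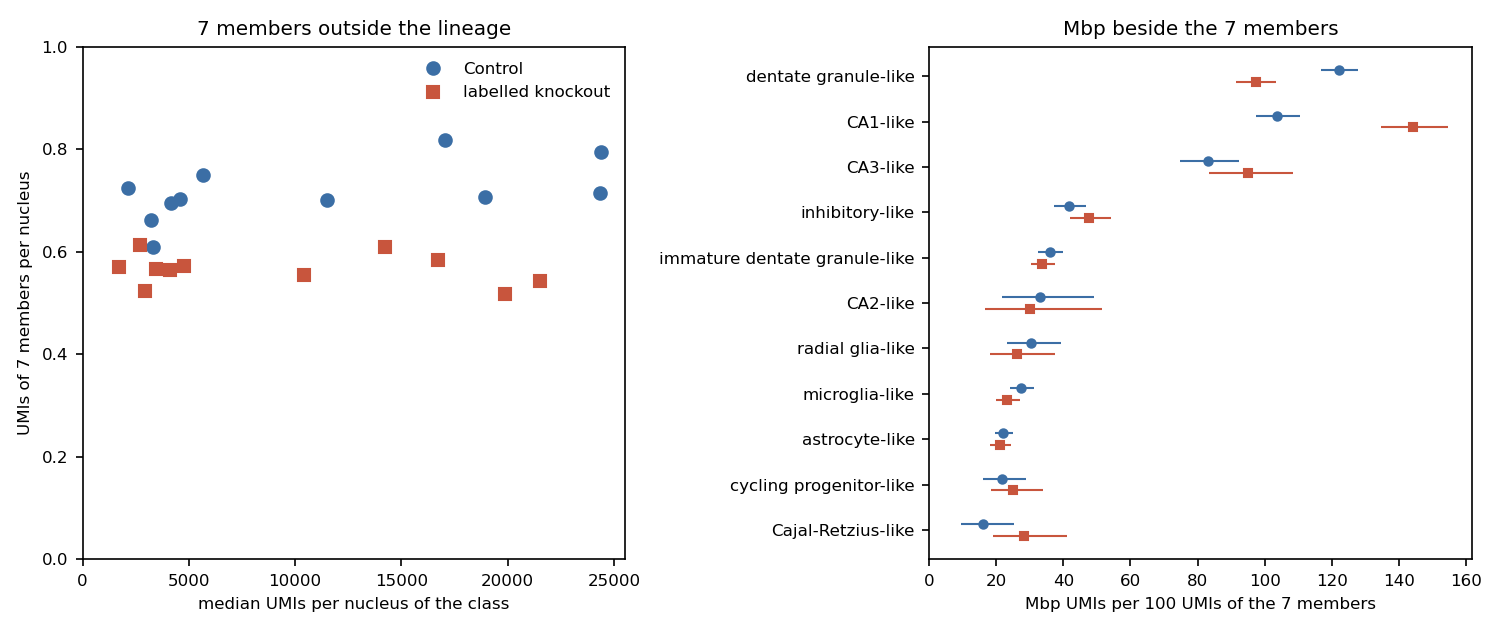
Left, UMIs of the 7 genes per nucleus (y axis) against the median UMIs per nucleus of each of the 11 classes outside the lineage (x axis), circles for Control and squares for the labelled knockout. Right, Mbp UMIs per 100 UMIs of the 7 genes by class with exact 95% counting intervals, where dentate granule-like, CA1-like and CA3-like nuclei stand above the other classes.

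In dentate granule-like nuclei Mbp had 4254 UMIs in Control and 2121 in the labelled knockout, or 71.6 and 49.8 CPM, a ratio of -0.52 (-0.60 to -0.45). The ratio was -0.48 in female and -0.49 in male nuclei. The class was made of different clusters in the 2 libraries, cluster 2 (3558 Control and 162 labelled knockout nuclei), cluster 5 (1211 and 1679) and cluster 6 (198 and 2087). Within each of them Mbp in CPM was lower in the labelled knockout, at -0.44, -0.43 and -0.76. Per 100 UMIs of the 7 genes, Mbp was closer between the libraries in cluster 5, with 76.4 in Control and 68.9 in the labelled knockout. The same measure was 134.4 and 98.9 in cluster 2 and 215.3 and 120.3 in cluster 6. The part of background in the ratios of these clusters was not tested. In CA1-like nuclei the direction was opposite. Mbp had 1983 and 2031 UMIs there, or 36.9 and 48.4 CPM, a ratio of 0.39 (0.30 to 0.48), with 0.48 in female and 0.39 in male nuclei. Cluster 3 of this class gave 0.60 (0.47 to 0.72) and cluster 8 gave 0.12 (-0.01 to 0.25). At a finer clustering CA1-like nuclei also separated by library, with 1 cluster of 289 Control and 1312 labelled knockout nuclei and another of 1333 and 53. With TMM factors, which shifted all CA1-like ratios by -0.11, the CA1-like ratio was 0.28. In CA3-like nuclei, the target field of the granule cells' mossy fibres, Mbp had 629 and 451 UMIs and a ratio of -0.18 (-0.36 to -0.01), with opposite signs in female (0.14) and male nuclei (-0.35). Inhibitory-like nuclei gave 0.01 (-0.20 to 0.21), with 0.29 in cluster 11, 0.32 in cluster 14 and -1.08 (-1.57 to -0.61, 126 and 54 UMIs) in cluster 23.

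**Figure D5:**
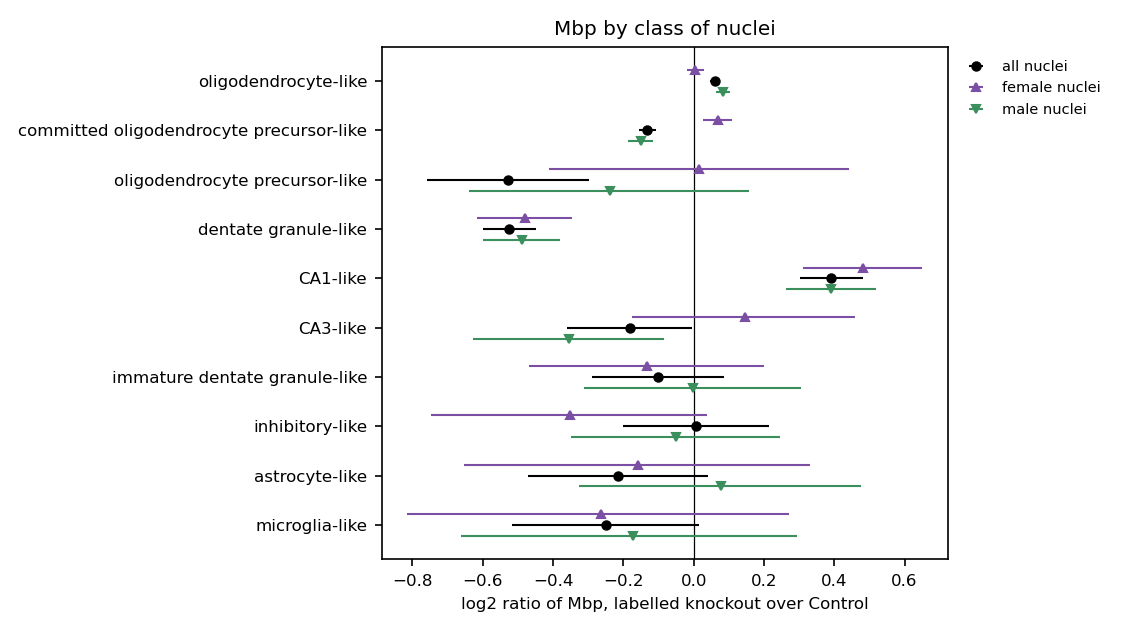
Log2 ratio of Mbp (labelled knockout over Control) in the classes with at least 100 Mbp UMIs in Control, for all, female and male nuclei, with exact 95% counting intervals. Dentate granule-like nuclei lie below 0 and CA1-like nuclei above 0 in both sexes, and oligodendrocyte-like nuclei lie within 0.09 of 0.

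Aspa stood apart in astrocyte-like nuclei alone. It had 172 UMIs in Control and 156 in the labelled knockout there, or 12.1 (10.3 to 14.2) and 15.3 (12.8 to 18.1) per 100 UMIs of the 7 genes. The median over the 11 outside classes was 2.29 and 1.83, and in each library the intervals of the 10 other classes lay below that of astrocyte-like nuclei. The Aspa ratio between the libraries in astrocyte-like nuclei was 0.19 (-0.13 to 0.51). Aspa in astrocyte-like nuclei was thus above the level of the other outside classes in both libraries, and the counting interval of its ratio between them held 0.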

How the data were processed

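Nuclear RNA of the hippocampus was measured in 2 libraries, Control and labelled knockout, each a pool of 3 mice. The deposited matrices hold whole-number UMI counts per gene and barcode that the authors made with Cell Ranger 8.0.1 on mm39, per the submitters' processing notes. Counting of introns and of strand is not given in the sources used here. Nuclei with at least 500 genes and at most 5% mitochondrial UMIs were kept, and doublets called by Scrublet (scanpy 1.11.5, expected rate 0.1) were left out. Both libraries were clustered together (3000 variable genes, 30 components, 15 neighbours, Leiden resolution 1) without the 9 genes, Xist, Tsix, Y-linked and mitochondrial genes, and clusters were named "X-like" from 21 marker sets, leaving 10.9% and 12.5% of nuclei unnamed. A rule on mean marker fold was added after the clusters were seen.

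UMIs were summed per class and library and divided by the class total. With 1 library per group there was no test. Intervals are exact Poisson, Clopper-Pearson or conditional binomial intervals at 95%, for counting error only. A nucleus was called female with at least 2 Xist and 0 Y-linked UMIs and male with 0 Xist and at least 1 Y-linked UMI. Scaling with edgeR 4.0.16 TMM factors and other choices were tried as alternatives. The script that applies the 2-fold rule was tested on simulated data. The genes and lists were chosen with earlier results of these data known. Named besides the 9 genes were the list genes past the 2-fold rule (up to 3 in each direction in oligodendrocyte-like and 2 in committed precursor-like nuclei), the 8 genes most alike in pattern, and Cic. Hmgcs1, Myrf, Sox10, Tcf7l2, Tm7sf2 and Gm597 were named after their values were seen. Results of some genes that these rules name are not reported here. Promoter windows are from RefSeq.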

Additional observations from a re-analysis of the deposited data

Results flagged for a closer look

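Mbp differed in direction between classes of nuclei. Its log2 ratio (labelled knockout over Control) was 0.392 among CA1-like nuclei but -0.524 among those of dentate granule type, each with the same sign in the female and in the male nuclei of the pools. It was 0.0606 in oligodendrocyte-like nuclei, against the same -0.524 in dentate granule-like nuclei. Neither difference between classes was tested, since there was 1 library per group, and dentate granule-like nuclei of the 2 libraries came mostly from different clusters. Within CA1-like nuclei the ratio was 0.60 in cluster 3 and 0.12 (-0.01 to 0.25) in cluster 8.

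In other cases the ratios in female and in male nuclei of the pools had opposite signs. Mal in oligodendrocyte-like nuclei had a ratio of 0.315 in female and -0.238 in male nuclei. In committed precursor-like nuclei Mobp had 0.296 and -0.424, and Mbp 0.0678 and -0.151. These differences were not tested, and each female value rests on 1 mouse per library.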

How the results depend on the processing

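No paired analysis was possible because each group had 1 library. No member passed the 2-fold rule in oligodendrocyte-like nuclei under 12 other settings, and the 117 alternative ratios there, 2 subclusters included, lay between -0.49 and 0.78. The median ratio of the 9 genes there, -0.05, became 0.0516 with called doublets kept, 0.0398 with TMM factors, 0.0478 with median-of-ratios factors, 0.0522 as a mean over nuclei, -0.0720 in male nuclei and 0.221 within subcluster 17, a split chosen after seeing the data. In committed precursor-like nuclei the median, -0.11, became 0.10 in female nuclei. In precursor-like nuclei it was -0.53 (-0.28 over the 7 genes tested), and -0.27 with doublets kept, -0.14 in female and -0.23 in male nuclei. The cause of these shifts was not tested. Subtracting free RNA left no median in the 2 precursor classes, where values fell to 0 or below. The ratio of the oligodendrocyte-like share, -0.27, ran from -0.34 to -0.20, and that of the 9 genes per inhibitory-like nucleus, -0.37, from -0.47 to -0.27, and it was -0.13 as a share of the UMIs of the class, a scale added after seeing the data. Of 533 alternative values of 49 single-gene ratios, 428 stayed within the counting interval of the value reported, but of the 117 for the 9 genes in oligodendrocyte-like nuclei only 55 did and 62 moved. Mbp ran from -0.91 to -0.45 in dentate granule-like and from 0.22 to 0.69 in CA1-like nuclei. Single clusters were not among those settings, and cluster 8 of the CA1-like nuclei gave 0.12 (-0.01 to 0.25). Depth limits Aspa and Mal in both precursor classes and Opalin in precursor-like nuclei, where they are at or near background. In precursor-like nuclei Mog, Mag, Mobp, Cldn11 and Cnp were also at about their inhibitory-like level per nucleus or below it. Their ratios and the median there carry the same limit.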
